A study of Mus musculus with 8 samples.

Results

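Non-overlapping 10 Mb windows of mouse autosomes 1 to 19 were read for their gene expression in 8 RNA sequencing libraries. These came from 3 mouse lines of EHE, or epithelioid hemangioendothelioma, a rare vascular cancer of endothelial character that in many patients carries a fusion of WWTR1 and CAMTA1. The libraries were EHE6 replicates 1, 2 and 3 (n = 3), EHE17 replicates 1, 2 and 3 (n = 3) and EHE26 replicates 1 and 2 (n = 2). The labels give the line and polyadenylated RNA, and nothing on genotype, sex, treatment, passage or origin of the lines, or on whether replicates were separate cultures. P-values therefore measure the spread between these libraries, which may be technical. Windows start at position 1 of each chromosome on mm10, and a gene belongs to the window that holds its start in the GENCODE M21 annotation. The genes used were the 9241 autosomal genes with a mean of at least 10 CPM (read counts scaled to a common library total, after TMM normalisation) over the 8 libraries. Of 257 windows with an annotated gene, 251 held 5 or more such genes and were kept. They held 5 to 142 genes each, with a median of 30, and 9234 of the genes used.

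The value of a gene in a library is the log2 CPM difference from the mean of all 8 libraries, centred on the library's median. The value of a window or of a chromosome is the median over its genes. A window value of 0 thus means that the genes of the window lay where the library's typical gene lay. In tumour cells a gained or lost stretch of chromosome tends to shift the RNA of many neighbouring genes in 1 direction, and single regulated genes move a median over many genes little, which is why such windows serve as a coarse view of chromosome balance. RNA levels do not measure DNA copy number. DNA was not analysed here, so what shifted a window was not tested. In bulk RNA a shift in fewer cells and a shift of less RNA per cell cannot be told apart.

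The promoters of a pair of genes are shown first because the run of low genes found in EHE26 at the end of chromosome 13 begins between them. Htr1a encodes a serotonin receptor and was the last of the genes used before the run, and Ipo11, which encodes a nuclear import receptor, was the first gene of the run. Each sequence covers 300 bases from RefSeq (GRCm38.p6), and capitals mark each CG dinucleotide, which reads the same on both strands. The Htr1a window is chr13:105443443-105443742 on the plus strand and the Ipo11 window is chr13:106936909-106937208 on the minus strand.
Htr1a: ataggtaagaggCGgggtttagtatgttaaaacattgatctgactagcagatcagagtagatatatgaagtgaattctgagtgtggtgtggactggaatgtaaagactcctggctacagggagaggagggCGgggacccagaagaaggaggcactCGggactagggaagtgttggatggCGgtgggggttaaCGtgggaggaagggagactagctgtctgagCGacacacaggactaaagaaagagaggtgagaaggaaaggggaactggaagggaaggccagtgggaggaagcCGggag
Ipo11: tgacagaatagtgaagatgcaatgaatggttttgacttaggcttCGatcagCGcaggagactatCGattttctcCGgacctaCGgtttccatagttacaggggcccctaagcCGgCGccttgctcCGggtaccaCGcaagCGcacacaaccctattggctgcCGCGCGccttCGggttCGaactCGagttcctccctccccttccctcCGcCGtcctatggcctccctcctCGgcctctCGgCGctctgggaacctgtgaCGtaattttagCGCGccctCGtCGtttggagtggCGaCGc
CG occurred 7 times in the Htr1a promoter and 28 times in that of Ipo11. Of 32851 promoters of that length, 94.6% held CG at least once, 52.1% held it 7 times or more and 14.2% held it 28 times or more.

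Total counts were 44620965 to 96237665 per library. The libraries formed 2 sets that the labels do not name. Between 24462 and 25177 genes had a read in replicates 1 and 2 of EHE6 and EHE17 (the first set), against 20066 to 20682 in the third replicates of EHE6 and EHE17 and in the EHE26 libraries (the second set). Depth divided the libraries in the same way, at 69366708 to 96237665 counts in the first set and 44620965 to 55802651 in the second. The part of depth in the number of genes with a read was not tested. EHE26 has no library in the first set, so line and set were separated only through EHE6 and EHE17. Pecam1, an endothelial adhesion gene, was at 1196 to 1667 CPM in all 8 libraries, and Cdh5 at 1071 to 4809 CPM. The other listed endothelial markers varied more. Kdr was at 22.4 CPM in EHE6 replicate 3, 102 and 45.5 in EHE26 and 247 to 1025 in the others. Tie1 was at 143 CPM in EHE6 replicate 3, 202 and 36.7 in EHE26 and 726 to 1237 in the others. Of the leukocyte markers, Ptprc was at most at 1.51 CPM and Cd3e at most at 0.03 CPM, while Lyz2 was at 13.8 to 37.2 CPM and Cd68 at 30.0 CPM in EHE17 replicate 3 and 1.39 to 5.61 elsewhere. The leukocyte list summed to 68.3 CPM in EHE17 replicate 3 and 16.3 to 40.8 CPM in the others. The summed level of 10 endothelial markers was 2703 CPM in EHE6 replicate 3 and 3831 CPM in EHE26 replicate 2, and 4963 to 11876 CPM in the others. Proliferation genes had a median of 1.40 (log2, against the mean of all libraries) in EHE6 replicate 3, 0.85 in EHE17 replicate 3, 0.70 and 0.54 in EHE26, and -1.50 to -0.09 in the first set. The Y-linked gene Ddx3y was at 65.6, 99.0 and 43.8 CPM in EHE6 replicates 1 to 3 and at most at 1.28 CPM elsewhere.

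**Figure D1:**
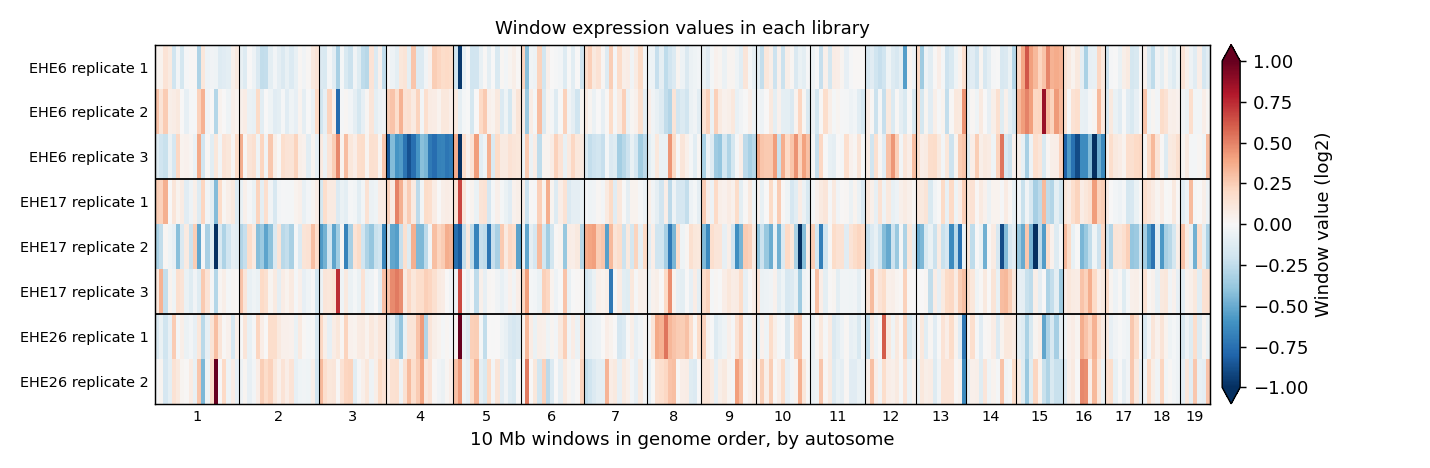
Window value (log2, colour scale clipped at -1 and 1) of 251 windows in genome order (columns, autosomes divided by lines) in each of the 8 libraries (rows). EHE6 replicate 3 is low along all of chromosomes 4 and 16, EHE6 replicates 1 and 2 are high along chromosome 15, and EHE17 replicate 2 alternates over the whole genome.

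Window values were close to 0 across most of the genome, and 2 libraries spread more than the rest. Over 251 windows the standard deviation reached 0.31 for EHE6 replicate 3 and 0.29 for EHE17 replicate 2. It was 0.14 to 0.19 for the other 6 libraries. Values beyond 0.4 in either direction were found in 34 windows of the first of these and 52 of the second, and in 4 to 8 windows of the others. Adjacent windows resembled each other most in EHE6 replicate 3, where the correlation over 231 pairs of neighbours was 0.58, against 0.19 to 0.39 in the others. As a description over windows, which share the library, the profiles of EHE6 replicates 1 and 2 correlated at 0.55 and those of the EHE26 libraries at 0.61. EHE6 replicate 3 correlated at -0.16 and -0.28 with the other EHE6 libraries, and EHE17 replicate 2 at -0.08 and -0.33 with the other EHE17 libraries. Values are differences from the mean of all 8 libraries, which by itself lowers correlations between libraries. Small negative correlations therefore do not show opposed profiles.

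The clearest shift of whole chromosomes was in 1 library. In EHE6 replicate 3, chromosome 4 (575 genes) was at -0.69, against 0.13 and 0.11 in EHE6 replicates 1 and 2 and 0.03 to 0.16 in EHE17 and EHE26. The level of its median gene was 0.569 times the mean of the other EHE6 libraries, and 89.0% of its genes lay below 0. All 16 windows of the chromosome were low in that library, between -0.87 and -0.42. Weakly, moderately and strongly expressed genes were all low: with genes divided by mean level, the low group was at -0.62, the middle group at -0.67 and the high group at -0.79. Chromosome 16 (307 genes) was at -0.67 in EHE6 replicate 3, against 0.05 and 0.08 in the other EHE6 libraries and 0.01 to 0.14 in EHE17 and EHE26. The ratio to the other EHE6 libraries was 0.600, and all 10 windows lay between -1.34 and -0.43. The window at 30 to 40 Mb, with 62 genes, was at -0.90 in that library and at -0.0037 to 0.22 in the others.

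Chromosome 10 moved the other way in EHE6 replicate 3. It was at 0.28 there (457 genes, ratio 1.27) and at -0.08 to 0.01 in the other 7 libraries. Of its 13 windows, 12 were above 0, and the window at 50 to 60 Mb was at -0.22. Chromosomes 7 and 9 were at -0.20 and -0.23 in that library. The difference between sets was not shared by EHE17 on chromosomes 4, 10 and 16: EHE17 replicate 3 minus the mean of replicates 1 and 2 was -0.0083, -0.02 and 0.03, against -0.81, 0.35 and -0.74 for EHE6. None of these chromosomes passed the limma test between lines. For EHE17 against EHE6, chromosome 4 was 0.28 higher ± 0.19 (SE, adjusted p = 0.765), with limma and the Benjamini-Hochberg adjustment over 19 chromosomes, and the standard deviation of the 3 EHE6 libraries was 0.47. For EHE26 against EHE6, chromosome 16 was 0.25 higher ± 0.19 (SE, limma adjusted p = 0.943, SD of EHE6 0.43). In EHE6 replicate 3 the summed endothelial markers were also lowest and the proliferation genes highest. The 6 epithelial markers summed to 91.1 CPM there, almost all of it Krt18 at 90.5 CPM, with Epcam and Cdh1 at 0, and to 1.10 to 38.4 CPM elsewhere. The 8 fibroblast and mural markers summed to 489 CPM there against at most 705 CPM elsewhere, and did not move together. Pdgfra was at 256 CPM (1.16 to 77.5 elsewhere) and Rgs5 at 186 CPM (0.224 to 66.4 elsewhere). Dcn was at 0.980 CPM (8.85 to 206 elsewhere), Lum at 0, as in EHE17 replicate 3, and Acta2 at 15.3 CPM (7.32 to 660 elsewhere). Col1a1, Col1a2 and Pdgfrb lay within the range of the other libraries. The part of these markers in the shifts was not tested.

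**Figure D2:**
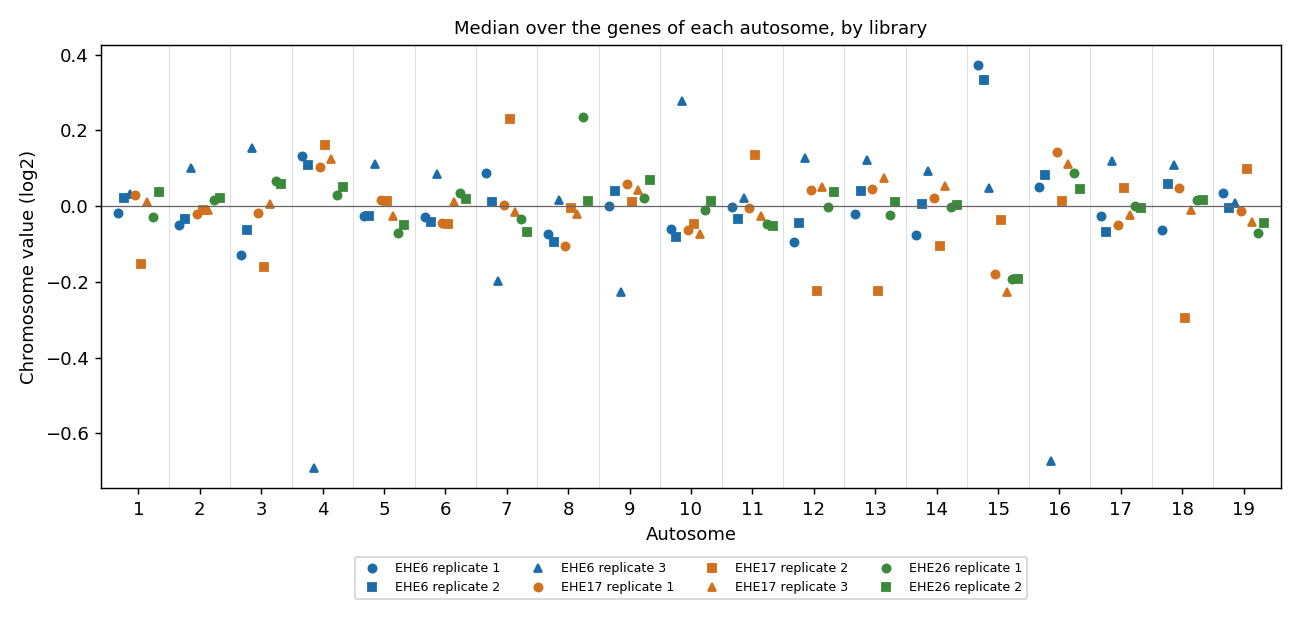
Chromosome value (log2, median over the genes used) of each of the 19 autosomes, with 1 point per library (colour for the line, shape for the replicate). EHE6 replicate 3 stands at -0.69 on chromosome 4 and -0.67 on chromosome 16, and chromosome 15 separates EHE6 replicates 1 and 2 (0.37 and 0.33) from EHE17 and EHE26 (-0.23 to -0.04).

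Single genes within the low chromosomes of EHE6 replicate 3 did not all follow them. The window of chromosome 4 at 80 to 90 Mb (22 genes) holds the genes of the cell-cycle inhibitors around Cdkn2a and was at -0.42 in that library and -0.13 and -0.02 in EHE6 replicates 1 and 2. It was at -0.02, -0.45 and 0.18 in EHE17, so that EHE17 replicate 2 was the lowest, and at 0.42 and 0.39 in EHE26, above every other library (limma adjusted p = 0.364 against EHE6 and 0.668 against EHE17). Cdkn2b, a cyclin-dependent kinase inhibitor (chr4:89306299-89311039), was at 1.60 CPM there, against 333 and 330 CPM in EHE6 replicates 1 and 2, 439, 486 and 89.4 in EHE17 and 64.7 and 60.4 in EHE26. Its neighbour Mtap, a methionine salvage enzyme (chr4:89137122-89181081), was at 443 CPM in EHE6 replicate 3 and at 38.5 to 129 in the other 7 libraries. Thus the gene with the low level and the gene with the high level lay in the same window. Camta1 (chr4:150917322-151861876), the partner gene of the fusion found in patients, was at 268 CPM in EHE6 replicate 3 and 337 to 600 CPM in the others, and its window was at -0.70 there and -0.03 to 0.34 elsewhere. On chromosome 16 the endothelial transcription factor Erg was at 42.6 CPM and the tight junction gene Cldn5 at 1.07 CPM in EHE6 replicate 3. Cldn5 was also at 7.95 and 0.518 CPM in EHE26, whose chromosome 16 was at 0.09 and 0.05, and at 276 to 777 CPM in the other 5 libraries. On chromosome 10 of EHE6 replicate 3, the kinase gene Stk11 was at 229 CPM, above 93.1 to 166 in the others. Ccn2, a target of the Hippo effectors YAP and TAZ, was at 1.19 CPM there, while its chromosome was high. It was as low in the rest of the second set, at 0.929 to 2.45 CPM, and at 50.1 to 86.3 CPM in the first set.

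**Figure D3:**
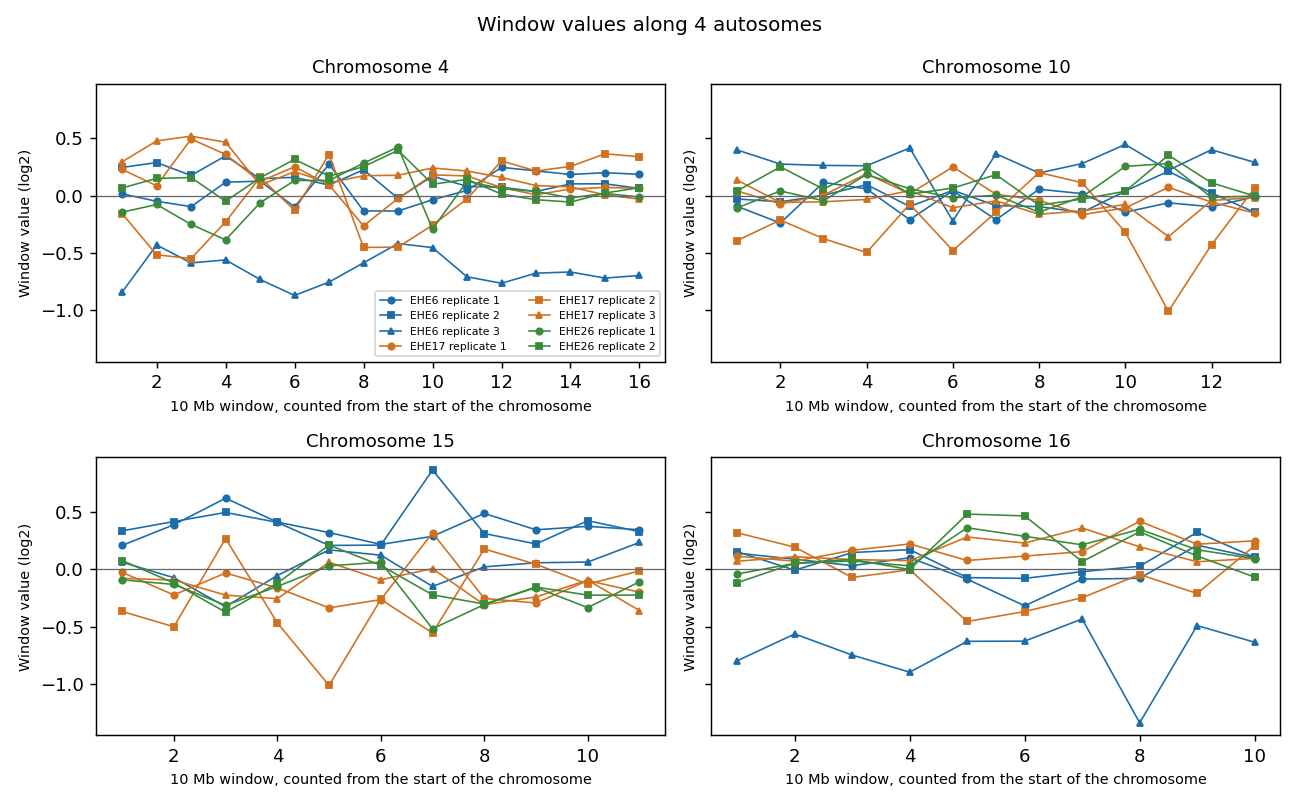
Window value (log2) along chromosomes 4, 10, 15 and 16, with windows counted from the start of each chromosome, 1 line per library (colour for the line, shape for the replicate). On chromosomes 4 and 16 all windows of EHE6 replicate 3 lie below -0.4, and on chromosome 15 all 11 windows of EHE6 replicates 1 and 2 lie above 0.2.

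Chromosome 15 was the only autosome that differed between lines in the limma test. Its value (386 genes) was 0.37, 0.33 and 0.05 in EHE6 replicates 1, 2 and 3, -0.18, -0.04 and -0.23 in EHE17, and -0.19 and -0.19 in EHE26. All 3 EHE6 libraries lay above all others, with replicate 3 near 0. EHE17 was 0.40 lower than EHE6 (SE 0.093, adjusted p = 0.0366) and EHE26 was 0.44 lower than EHE6 (SE 0.104, adjusted p = 0.0380), both with limma over 19 chromosomes, so 5.26% of chromosomes were called in each of these comparisons. EHE26 and EHE17 differed by -0.04 (SE 0.104), and 0% of chromosomes were called between them (0 at an unadjusted p under 0.05). Both calls share the EHE6 libraries. Within the first set EHE17 was 0.46 lower, as the means of 2 libraries each. Within the second set EHE17 replicate 3 was 0.27 and EHE26 0.24 lower than EHE6 replicate 3, with 1 EHE6 library. When the set entered the model, a choice made after the data were seen, the limma adjusted p was 0.00403 for EHE17 and 0.123 for EHE26 against EHE6, where the difference was -0.30. Both calls were lost with the mean over genes in place of the median (limma adjusted p = 0.409 and 0.186), and when values were centred on genes outside chromosomes 4, 10, 15 and 16 (0.111 and 0.107).

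The shift of chromosome 15 ran along its length in EHE6 replicates 1 and 2, whose windows were all above 0.2. EHE6 replicate 3 ranged from -0.33 to 0.23, with 4 windows below 0. Within the second set EHE26 minus EHE6 replicate 3 was -0.02 at 20 to 30 Mb and -0.40 at 100 to 110 Mb. EHE17 replicate 3 minus EHE6 replicate 3 was 0.10 and -0.59 in these windows, and 0.155 at 60 to 70 Mb. Of the 11 windows of chromosome 15, 9 had an unadjusted limma p under 0.05 for EHE17 against EHE6, out of 12 in the whole genome. In 8 of the 11 the libraries did not overlap between the lines. Over all 251 windows, 6.37% did not overlap in that comparison. For EHE26 against EHE6, 5 of the 11 had an unadjusted p under 0.05, out of 17, and 8 did not overlap, out of 87 (34.7% of all windows). Genes of all levels took part, since the groups with low, middle and high expression were at 0.32, 0.38 and 0.42 in EHE6 replicate 1. In EHE17 13.5% of the chromosome's genes were higher than in EHE6, against 47.5% of all genes used. In EHE26 20.7% were higher than in EHE6, against 50.9% of all genes used. The calls of both comparisons held without EHE6 replicate 3 (adjusted p = 0.00175 and 0.00172), and that for EHE26 also without EHE17 replicate 1 (0.0469). Each was lost without any other single library, with adjusted p of 0.0601 to 0.157 for EHE17 and 0.0622 to 0.273 for EHE26, while the differences stayed between -0.56 and -0.34.

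Named genes of chromosome 15 moved with and against it. Adamts12, a secreted metalloproteinase gene, was at 54.5, 68.6 and 46.4 CPM in EHE6, 13.1, 9.35 and 12.2 in EHE17 and 55.6 and 76.2 in EHE26. It fell by 2.30 on the log2 scale from EHE6 to EHE17 (SE 0.28, edgeR adjusted p = 0.0367), and was the 1 gene of the 386 called in that comparison, where 0.143% of all tested genes were called. That call held without EHE6 replicate 3 and was lost without any of the other 7 libraries (adjusted p up to 0.198). Myc, the growth-promoting transcription factor, was at 231, 189 and 93.7 CPM in EHE6, 153, 177 and 72.7 in EHE17 and 40.5 and 61.9 in EHE26. EHE26 lay below all other libraries, but the difference from EHE6 (-1.73, SE 0.53) had an edgeR adjusted p of 0.199. Stk3, a Hippo pathway kinase gene, was at 61.2 to 108 CPM in EHE6, 34.4 to 79.9 in EHE17 and 64.8 and 74.6 in EHE26. Of the chromosome's genes 6 were called in EHE26 against EHE6 and 9 in EHE26 against EHE17, all higher in EHE26. Over all genes tested 1.26% and 1.08% were called, and over the 9241 genes used 140 (1.51%, 124 of them higher) and 130 (1.41%, 110 higher). Npr3, a natriuretic peptide receptor gene, was at 80.5 and 17.6 CPM in EHE26 and at most at 4.2 CPM elsewhere (4.22 higher than EHE6, SE 0.71, edgeR adjusted p = 0.0359). The call was lost without EHE6 or EHE17 replicate 1 or 2 or EHE26 replicate 1 (up to 0.298). The proteoglycan gene Sdc2 was at 128 and 104 CPM in EHE26 and 5.80 to 10.8 in EHE17 (3.85 higher, SE 0.44, edgeR adjusted p = 0.0107), a call lost without EHE17 replicate 1 or 2 or either EHE26 library (up to 0.0889). Fam135b was at 0.166 and 0.0432 CPM in EHE26 and at 41.6 to 115 CPM in 5 of the other libraries, with 1.24 CPM in EHE6 replicate 3.

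At the level of single windows 1 of 251 was called, the last window of chromosome 13 (110 to 120 Mb, 23 genes) in EHE26 against EHE6. Its value was 0.16, 0.45 and 0.28 in EHE6 replicates 1 to 3, 0.23, -0.07 and 0.30 in EHE17, and -0.72 and -0.63 in EHE26. Both EHE26 libraries lay below every other library. EHE26 was 0.97 lower than EHE6 (SE 0.142, limma adjusted p = 0.0254 over 251 windows), a call rate of 0.398%. Against EHE17 it was 0.83 lower (SE 0.142, adjusted p = 0.0791), and 0% of windows were called. In both comparisons 21 of the 23 genes were lower in EHE26. Within the second set EHE26 was 0.95 lower than EHE6 replicate 3 and 0.97 lower than EHE17 replicate 3.

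The difference kept its direction in every alternative fit read for this window, which were not all of the fits run, but the call did not hold in each. It was lost when any EHE6 or EHE26 library or EHE17 replicate 1 was left out (adjusted p = 0.0551 to 0.586, differences from -1.04 to -0.86), when the library set entered the model (0.0564, difference -1.03), with the mean over genes (0.0575) and with windows shifted by 5 Mb (0.137). Where 1 EHE26 library remained, it was assumed to vary like the other libraries. The call was also lost when the replicate number entered the model and with edgeR on summed window counts, as given below. The shifted fit read the window that starts 5 Mb later, which holds 7 genes of the called window and leaves out 16. It is therefore a smaller stretch and not a second test of the same window. The shifted window that overlaps its first part was not read. Lack of overlap alone was common, since 28.7% of windows had none between EHE26 and EHE17.

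Gene by gene, the low stretch began between Htr1a and Ipo11, whose promoters are shown above. From Ipo11 to Zfp131 (chr13:106794439-119790889) 32 genes were used, an interval chosen after its values were seen and so given as a description. Their median was -0.73 in both EHE26 libraries, 0.22, 0.52 and 0.31 in EHE6 and 0.22, -0.07 and 0.30 in EHE17. For 17 of the 32 genes both EHE26 libraries lay below all 6 others, as they did for 8.47% of the 9241 genes used. Mtrex, an RNA helicase gene of nuclear RNA decay, was at 31.2 and 33.8 CPM in EHE26, 82.4, 84.1 and 111 in EHE6 and 69.5, 37.9 and 93.0 in EHE17. Slc38a9, a lysosomal amino acid sensor gene, was at 4.71 and 4.62 CPM in EHE26 and 10.5 to 16.7 CPM in all other libraries. Dimt1, an rRNA methyltransferase gene, was at 4.71 and 5.61 CPM in EHE26 and 11.6 to 17.3 CPM elsewhere. For these genes, too, EHE26 did not overlap with the other lines.

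Further genes of the stretch differed in their overlap with the other lines. Pde4d, a phosphodiesterase gene of cAMP breakdown, was at 3.72 and 2.76 CPM in EHE26 against 20.5, 26.1 and 14.1 in EHE17 (-2.63, SE 0.43, edgeR adjusted p = 0.0377). The call held without EHE6 replicate 3 or EHE17 replicate 3 and was lost without any other library (up to 0.311). Its edgeR adjusted p against EHE6 was 0.0611. Itga1, an integrin chain gene for collagen binding, was at 19.2 and 10.3 CPM in EHE26, 27.9 to 59.1 in EHE6 and 13.7 to 25.8 in EHE17, so that EHE26 overlapped with EHE17. Esm1, an endothelial secreted proteoglycan gene, was at 17.8 and 14.1 CPM in EHE26 and at 3.47 CPM in EHE6 replicate 3, against 61.7 to 438 CPM in the others. Of the 23 genes of the window 0 were called by edgeR in any comparison. At an unadjusted p under 0.05 there were 11 in EHE26 against EHE6 and 13 in EHE26 against EHE17, beside 14.7% and 15.6% of all genes used. Gpx8, Depdc1b and Hmgcs1 were above 0 in both EHE26 libraries, Gpx8 at 91.3 and 113 CPM.

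Htr1a, just outside the stretch, went the other way. It was at 286 and 316 CPM in EHE26 and at most at 0.895 CPM in the other 6 libraries, with no read in EHE6 replicate 1 and EHE17 replicate 2. The edgeR adjusted p was 0.0599 against EHE6 and 0.0576 against EHE17. The genes between 100 and 105 Mb (20 genes) were at 0.07 and 0.17 in EHE26, while those between 105 and 110 Mb (10 genes, Htr1a among them) were at -0.83 and -0.87. A gene of the 105 to 110 Mb stretch with a different pattern was Rps3a3, which resembles a ribosomal protein gene, so its reads may be shared with near-identical copies. It was at 124, 90.0 and 135 CPM in EHE6 and 4.58 to 6.70 CPM in the 5 other libraries (-4.45 in EHE17, edgeR adjusted p = 0.00257, and -4.25 in EHE26, 0.00159). The first call was lost without EHE17 replicate 1 (0.0521), and the second was kept in 8 of 8 fits with 1 library left out.

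**Figure D4:**
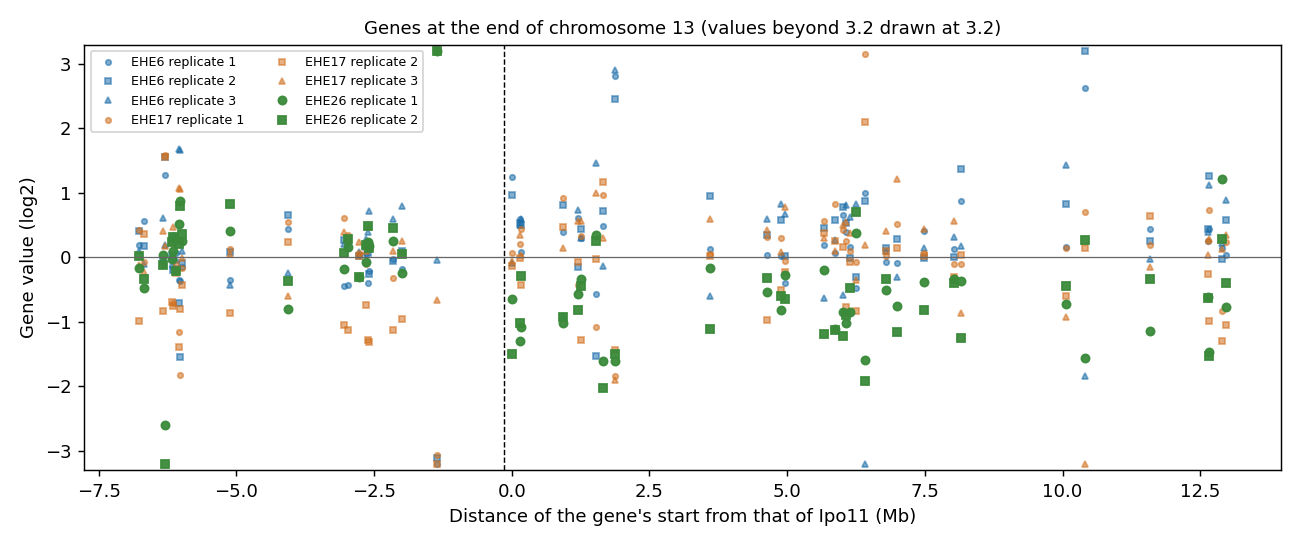
Gene value (log2) of the genes used at the end of chromosome 13 against the distance of their start from that of Ipo11 (Mb), with 1 point per library (colour for the line, shape for the replicate, larger points for EHE26). To the right of the dashed line most EHE26 points lie below 0 (29 and 28 of 32 genes), and to its left Htr1a lies beyond the top of the scale in EHE26.

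A shorter run was found in 1 EHE17 library. The window of chromosome 7 at 60 to 70 Mb (23 genes) was at -0.71 in EHE17 replicate 3, 0.19 and 0.33 in EHE17 replicates 1 and 2, and -0.14 to 0.25 in EHE6 and EHE26. The low genes ran from Mtmr10 to Igf1r (chr7:64287653-68233668, 18 genes, also chosen after the values were seen). Their median in EHE17 replicate 3 was -0.75, and 17 of the 18 were below 0, 12 of them below every other library, as were 11.1% of all genes used. Tjp1, a tight junction scaffold gene, was at 136 CPM there and 197 to 738 CPM in the other libraries. Lrrk1, a kinase gene, was at 29.1 CPM against 46.0 to 88.4 CPM. Igf1r, the growth factor receptor gene, was at 28.2 CPM, against 88.0 and 95.4 in the other EHE17 libraries and 18.7 in EHE6 replicate 3, so it was not the lowest. Pcsk6, a proprotein convertase gene inside the run, was at 94.1 CPM and above 0. The neighbours Klf13 and Arrdc4 on either side were at 0.20 and -0.07.

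Chromosome 8 differed between the EHE26 libraries. It was at 0.23 in EHE26 replicate 1 (556 genes) and 0.01 in replicate 2, and at -0.10 to 0.02 in the other lines. The EHE26 mean was 0.18 higher than EHE6 (SE 0.082, limma adjusted p = 0.565) and 0.17 higher than EHE17 (limma adjusted p = 0.921), and neither passed the test. Chromosome 7 had the lowest difference of EHE26 from EHE17, at -0.12 (limma adjusted p = 0.921). The window of chromosome 8 at 40 to 50 Mb reached 0.53 in EHE26 replicate 1, against 0.21 in replicate 2.

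EHE17 replicate 2 differed from all other libraries in a pattern that followed base composition. Its window values correlated at 0.82 with the median GC share of the longest transcripts of the window's genes, over 251 windows of 1 library, against -0.50 to 0.41 in the other libraries. In the 84 windows of lowest GC (at most 45.6%) its median value was -0.40, and in the 84 of highest GC (at least 49.3%) it was 0.15. The window of chromosome 10 at 100 to 110 Mb (7 genes) was at -1.01, and that of chromosome 15 at 40 to 50 Mb (7 genes) also at -1.01. Windows with few genes were low in this library, with a correlation of 0.63 between value and log2 gene number. Removing from each library a quadratic fit of gene values on transcript GC brought the standard deviation of EHE17 replicate 2 from 0.29 to 0.14 and its correlation with GC to 0.07. That of EHE6 replicate 3 stayed at 0.30.

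After this removal, chosen after the data were seen, more windows of chromosomes 13 and 15 were called. The last window of chromosome 13 was called in both comparisons with EHE26, at -1.10 against EHE6 (adjusted p = 0.000876) and -0.95 against EHE17 (0.00240), with limma over 251 windows. The last window of chromosome 15 (100 to 110 Mb, 40 genes) was called at -0.53 in EHE17 against EHE6 (0.00283) and at -0.42 in EHE26 against EHE6 (0.0161). Before the removal that window was at 0.34, 0.33 and 0.23 in EHE6, -0.20, -0.01 and -0.36 in EHE17 and -0.11 and -0.22 in EHE26, with adjusted p of 0.312 and 0.364. Chromosome 15 as a whole kept both of its calls (limma adjusted p = 0.0136 and 0.0250). Windows far from the rest of their line in EHE17 replicate 2 held few genes, such as chromosome 14 at 90 to 100 Mb (5 genes) at -0.89 and chromosome 4 at 20 to 30 Mb (10 genes) at -0.55.

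**Figure D5:**
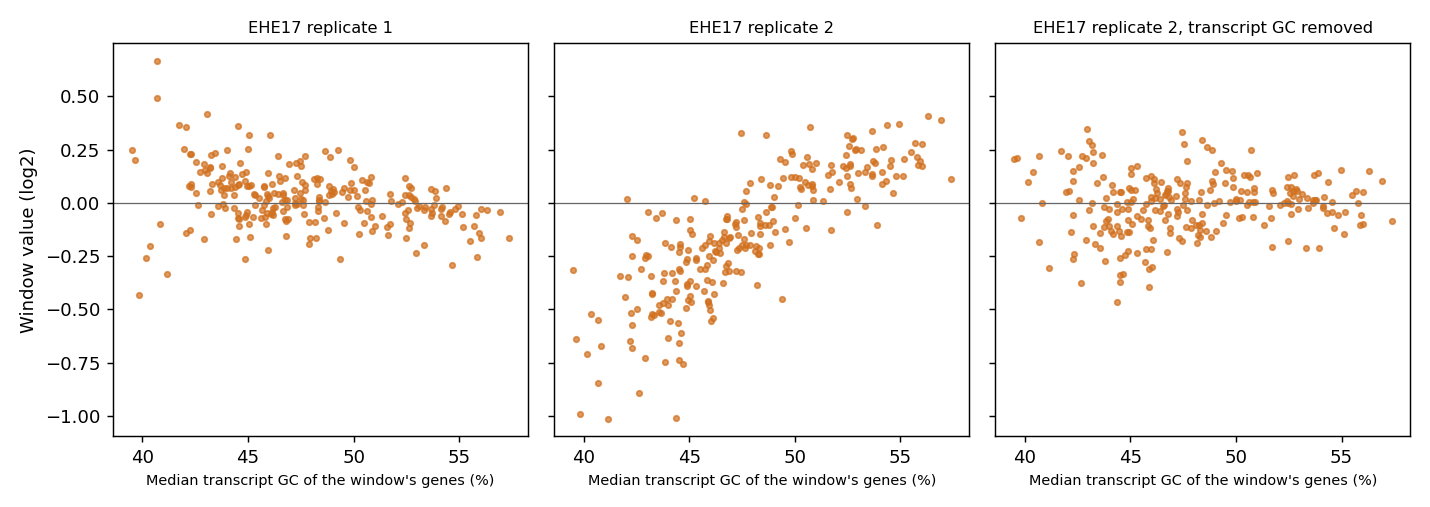
Window value (log2) against the median transcript GC of the window's genes (%), 1 point per window, for EHE17 replicate 1, EHE17 replicate 2, and EHE17 replicate 2 after the fit on transcript GC was removed. The values of replicate 2 climb with GC before the removal (correlation 0.82) and show little relation after it (0.07).

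In the comparison of EHE17 with EHE6, 0 windows were called (0%), 12 had an unadjusted p under 0.05 in the limma test and 3 were called by edgeR on summed window counts, all on chromosome 15. The lower windows with the largest differences and no overlap were on chromosome 15 at 40 to 50, 30 to 40 and 10 to 20 Mb, at -0.66, -0.55 and -0.52. In the window at 30 to 40 Mb (29 genes) EHE6 was at 0.41, 0.41 and -0.05 and EHE17 at -0.16, -0.47 and -0.26. Of the windows without overlap, 4 were higher in EHE17. The first of these by difference was chromosome 14 below 10 Mb, with a smaller difference than some windows whose libraries overlapped, such as chromosome 5 at 10 to 20 Mb (1.08). The chromosome 14 window held 7 genes and was at -0.14, -0.06 and -0.12 in EHE6 and 0.11, 0.11 and 0.17 in EHE17 (0.24 higher, SE 0.086, adjusted p = 0.651). Within the first set the difference was 0.21 and within the second 0.28. There the kinase-like gene Pxk was at 87.5 to 120 CPM in EHE6 and 163 to 189 CPM in EHE17. The windows of chromosome 9 at 120 to 130 Mb and of chromosome 8 at 110 to 120 Mb were 0.17 and 0.12 higher. The latter holds Maf, a transcription factor gene, at 23.3, 24.7 and 1.28 CPM in EHE6 and 57.7, 90.7 and 56.6 in EHE17. Eif3e, a translation initiation factor gene of the low window at 40 to 50 Mb of chromosome 15, was at 295 to 397 CPM in EHE6 and 211 to 234 in EHE17, with 297 and 323 in EHE26.

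For EHE26 against EHE17, 0 windows were called (0%), 17 had an unadjusted p under 0.05 in the limma test and 1 was called by edgeR on summed counts, chromosome 1 at 140 to 150 Mb (7 genes). That window was at 0.30 and 1.01 in EHE26, -0.43, -0.99 and -0.29 in EHE17 and -0.04, -0.29 and 0.11 in EHE6 (1.23 higher than EHE17, SE 0.26, limma adjusted p = 0.157), and within the second set it was 0.94 higher. It holds Pla2g4a, a phospholipase gene, at 89.0 and 87.3 CPM in EHE26 and 2.55 to 4.49 in EHE17 (4.57 higher, SE 0.71, edgeR adjusted p = 0.0321), a call lost without any single EHE17 or EHE26 library (up to 0.167). In chromosome 5 at 50 to 60 Mb the gene Lgi2 was at 60.9 and 78.3 CPM in EHE26 and at most at 4.48 CPM elsewhere, a called gene (edgeR adjusted p = 0.0148 and 0.00885) in a window at 0.24 and 0.34 that was not called. Its calls were lost without replicates 1 or 2 of EHE6 or either EHE26 library against EHE6, and without EHE17 replicate 1 or 2 or EHE26 replicate 2 against EHE17 (up to 0.100 and 0.0708).

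Of the 72 windows without overlap between EHE26 and EHE17, the rule for named windows also took 1 each on chromosomes 10, 1 and 15. In the window of chromosome 10 at 100 to 110 Mb, Kitl, the ligand of the Kit receptor, was at 65.4 and 42.3 CPM in EHE26, 17.5, 5.65 and 18.0 in EHE17 and 78.5, 136 and 23.3 in EHE6. On chromosome 1 the window at 110 to 120 Mb (9 genes) was at -0.27 and -0.45 in EHE26 and at 0.22, -0.02 and 0.26 in EHE17. Its gene Inhbb, an activin subunit gene, was at 1.84 and 7.10 CPM in EHE26 and 1.60 in EHE6 replicate 3, against 69.7 to 184 CPM in the other 5 libraries. In the window of chromosome 15 at 20 to 30 Mb, Retreg1, a receptor gene of endoplasmic reticulum turnover, was at 23.4, 11.8 and 96.6 CPM in EHE17 and at most at 3.76 CPM in the others. On chromosome 15 the window at 70 to 80 Mb (98 genes), among those lowest in EHE26 against EHE6, was at -0.31 and -0.30 in EHE26 against 0.49, 0.31 and 0.02 in EHE6 (limma adjusted p = 0.364). Its gene Csf2rb, a cytokine receptor chain gene, was at 0.386 and 0.972 CPM in EHE26, 78.7, 97.7 and 6.54 in EHE6 and 32.5, 30.8 and 0.388 in EHE17.

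The windows of Wwtr1, Trp53, Yap1 and H2-K1 were read whatever their values. The window of Wwtr1, which encodes TAZ (chromosome 3 at 50 to 60 Mb, 31 genes), lay between -0.07 and 0.14 in all libraries, with Wwtr1 itself at 70.9 to 117 CPM. The window of Trp53 (chromosome 11 at 60 to 70 Mb, 83 genes) lay between -0.10 and 0.14. That of Yap1 (chromosome 9 below 10 Mb, 14 genes) ranged from -0.44 in EHE17 replicate 2 to 0.25 in EHE17 replicate 1. The window with the MHC class I gene H2-K1 (chromosome 17 at 30 to 40 Mb, 112 genes) was at -0.0048 and 0.0011 in EHE26. The listed genes of MHC class I presentation, in this and other windows, summed to 12809 and 10547 CPM in EHE26 and 551 to 3146 CPM elsewhere.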

How the data were processed

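RNA of 8 libraries of 3 mouse cell lines was polyA-selected, per the labels. The authors deposited raw counts per Ensembl gene, 55401 genes, whose per-sample files match the series table (8 of 8). Reads were aligned with HISAT2 to mm10, per the submitters' processing notes. The counting tool, annotation and strand setting are not given in the sources used here, so overlapping and antisense genes cannot be told apart. GENCODE M21 placed 55141 genes. Counts were scaled with TMM (edgeR 4.0.16, R 4.3.3), and log2 CPM used a prior count of 2. Windows (251) and chromosomes (19) were tested with limma 3.58.1 in 1 model of 8 libraries, without terms other than the line. Genes (18882 after filterByExpr) were tested with edgeR's quasi-likelihood test. P-values were adjusted over each table with the Benjamini-Hochberg method and called under 0.05, and genes also had to change 2-fold or more. DESeq2 1.42.0 served as an alternative. The tests were run on simulated data with the same spread for every gene. Those data held no library sets, GC trend or outlying library, so they do not check the tests against these features. Alternatives were other scalings, filters, window sizes and left-out libraries, and 5 further ones chosen after seeing the data.

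Windows, lists and rules were chosen with earlier results of these data known. Named windows are, for each comparison, up to 3 in each direction with the largest differences among those whose libraries do not overlap, up to 5 with 1 library far from its line, and those of 7 fixed genes. Named genes are up to 3 per such window that do not overlap, plus listed growth, Hippo and endothelial genes. Other single genes and windows, and the runs on chromosomes 7 and 13, were chosen after their values were seen. Replicate numbers were checked for pairing and did not pair the libraries. Depth was 44620965 to 96237665 counts per library.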

Additional observations from a re-analysis of the deposited data

How the results depend on the processing

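Chromosome and window calls depended on the fit more than their directions did. Leaving out 1 library at a time gave 0 to 0 called windows for EHE17 against EHE6, and 0 to 1 in each comparison with EHE26, and 0 to 1 called chromosomes in both comparisons with EHE6. Called genes ranged from 1 to 54 (EHE17 against EHE6), 65 to 1632 (EHE26 against EHE6) and 2 to 1415 (EHE26 against EHE17). The lowest came without EHE17 replicate 1, EHE6 replicate 1 and EHE17 replicate 2, and the highest without EHE6 replicate 3. Taking the mean over genes gave 0 called chromosomes in both comparisons with EHE6, 0 called windows for EHE26 against EHE6 (1 against EHE17). With the mean, 16:70-80 reversed to -0.0189 (EHE26 against EHE6). For EHE26 against EHE6, replicates 1 and 2 alone gave 3 called windows and windows of 20 Mb gave 0. For EHE26 against EHE17, a minimum of 1 CPM gave 1 and windows of 5 Mb gave 1. In the order of comparisons above, summed counts in edgeR gave 3, 0 and 1 called windows. Shifting windows by 5 Mb read the window that starts 5 Mb later. After 5:10-20 this later window differed by -0.18 (EHE26 against EHE6). After 5:50-60 it differed by -0.11 (EHE26 against EHE17). Both leave out the first part of the named window, where Sema3d and Sema3a, or Lgi2, start. A reversal of the named windows themselves was therefore not tested by this shift. Leaving out 1 library, chromosome 15 was at -0.066 to 0.018 in EHE26 against EHE17, reversed without EHE17 replicate 2. For genes, DESeq2 called 392 (244 higher, 148 lower), 1570 (648 and 922) and 1712 (673 and 1039), against 27 (15 and 12), 237 (207 and 30) and 203 (168 and 35) in edgeR, and no filter on low counts gave 142, 547 and 745. The cause of these changes was not tested.

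Further alternatives were chosen after seeing the data. Removing transcript GC gave 1, 2 and 1 called windows. Without both EHE6 replicate 3 and EHE17 replicate 2, which were picked for their spread and so lower it by construction, 9, 32 and 3 windows and 3, 9 and 3 chromosomes were called. On chromosome 15, 8 of its 11 windows were then called lower in EHE17 and 8 in EHE26 against EHE6, and its value in EHE26 against EHE17 reversed to 0.0185. Centring on genes outside chromosomes 4, 10, 15 and 16 gave 0 called chromosomes in both comparisons with EHE6. With the library set in the model, EHE26 against EHE6 gave 0 called windows and 0 chromosomes, and in EHE26 against EHE17 chromosome 15 reversed to 0.10 and 15:20-30 to 0.0609. In the first set alone 9:120-130 reversed to -0.0036 (EHE17 against EHE6).

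Same-numbered libraries of EHE6 and EHE17 correlated at -0.30, -0.21 and 0.25 in their deviations from the line means over windows, so the numbers were not read as pairs. The replicate block gave 0 called windows in each comparison (for EHE26 against EHE6, 13:110-120 had an adjusted p of 0.0653), left the chromosome 15 calls (adjusted p = 0.00872 and 0.00440), and gave 33, 1459 and 1860 called genes. The precision of windows with few genes (6 held 5 or 6 genes) was not compared with depth.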

Other observations

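The windows of chromosome 16 at 40 to 50 Mb (21 genes) and 50 to 60 Mb (24 genes) were high in both EHE26 libraries, at 0.36 and 0.48 and at 0.29 and 0.47. In EHE6 they were at -0.09, -0.07 and -0.63 and at -0.32, -0.08 and -0.63. The difference of the second window, 0.72, had a limma adjusted p of 0.364. Within the second set EHE26 was 0.14 and 0.15 higher than EHE17 replicate 3 in these windows. EHE17 replicate 3 was itself 0.47 and 0.35 above the mean of EHE17 replicates 1 and 2. The window of chromosome 5 at 10 to 20 Mb (5 genes) had the widest range over libraries of the 251 windows, from -1.69 in EHE6 replicate 3 to 1.81 in EHE26 replicate 1. It holds the axon guidance genes Sema3d, at 155 and 57.9 CPM in EHE26 and 0.324 to 28.9 elsewhere, and Sema3a, at 180 and 66.9 CPM in EHE26 and at 204 CPM in EHE17 replicate 3. Ocln, a tight junction gene on chromosome 13 before the low stretch (chr13:100496507-100552718), was at 5.23 and 2.07 CPM in EHE26 and at 36.0 CPM or more in the other lines. It fell by 4.17 on the log2 scale against EHE6 (edgeR adjusted p = 0.0339), a call that held without EHE6 replicate 3 or EHE17 replicate 3 and was lost without any other library (up to 0.231). In the 60 to 70 Mb window of chromosome 7, the imprinted gene Ndn was at 0.213 CPM in EHE6 replicate 3 and 0.326 CPM in EHE17 replicate 3, 9.53 and 3.0 in EHE26 and 41.3 to 83.5 CPM in the first set.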
